A study of Homo sapiens with 6 samples.

Results

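SU-CCS-1, an established line of human clear cell sarcoma (CCS), carries the EWSR1::ATF1 fusion, and acetylation of lysine 27 on histone H3 (H3K27ac) was mapped in it by chromatin immunoprecipitation followed by sequencing (ChIP-seq). The series held 3 H3K27ac samples and 3 Input samples, all from the same line with no treatment named, and 1 merged list of 30784 broad peaks. The peaks described here were the 3003 that lay wholly within 3 Mb of an end of chromosomes 1 to 22 in hg38, which was 9.76% of the list and 10.01% of the 29986 peaks on those chromosomes. They were chosen by position alone. The short-arm ends of chromosomes 13, 14, 15, 21 and 22 were left out, which left 39 ends, and no peak of the list lay in the 5 ends left out. How much of those 5 ends is resolved sequence was not counted, so the absence of peaks there is no measure of acetylation. The comparison was with the 26983 peaks in the rest of the same 22 chromosomes. In all, 3 peaks crossed the 3 Mb boundary and were counted in the rest. The list held no value per sample, so no difference below was measured between replicates, and 1 line gives no estimate of how other CCS cells vary.

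H3K27ac is deposited on nucleosomes beside active promoters and enhancers, and broad or clustered peaks of it are found at genes that are strongly transcribed or that specify the cell type. The sequence near human chromosome ends is in general rich in GC and in genes, and gives way at the tip to blocks that are shared between chromosomes and then to the telomere repeat. The fusion in CCS keeps the DNA-binding domain of ATF1, which recognises the ATF/CREB site TGACGTCA.

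The ends made up 4.17% of the ungapped sequence of chromosomes 1 to 22. They held 26.1 peaks per Mb of ungapped sequence, against 10.2 in the rest, and 4.34% of their bases lay in peaks, against 1.44%. The members were wider than the peaks of the rest, lay closer to each other and were more often at promoters. Along the 10 Mb nearest to the ends the density was highest between 0.5 and 1 Mb, at 32.5 ± 4.24 peaks per Mb (SE over 39 ends), and was 25.5 ± 2.35 in the outermost 0.5 Mb. It was 18.7 ± 3.36 between 2.5 and 3 Mb and 13.1 ± 2.34 between 9.5 and 10 Mb. No step stood at the 3 Mb boundary. The 362 members between 2.5 and 3 Mb had a median width of 1200 bases and were promoter-associated in 60.5%, and the 367 peaks just outside, between 3 and 3.5 Mb, had 1170 bases and 59.4%. GC content fell over the same distance, from 49.7% between 1 and 1.5 Mb to 42.8% between 9.5 and 10 Mb. Coding genes fell from 18.4 per Mb between 0.5 and 1 Mb to 8.73 between 2.5 and 3 Mb. They stood at 9.08 per Mb between 9.5 and 10 Mb. The density did not fall evenly, and was 20.7 ± 4.03 peaks per Mb between 6.5 and 7 Mb, where GC content was 43.7%.

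**Figure D1:**
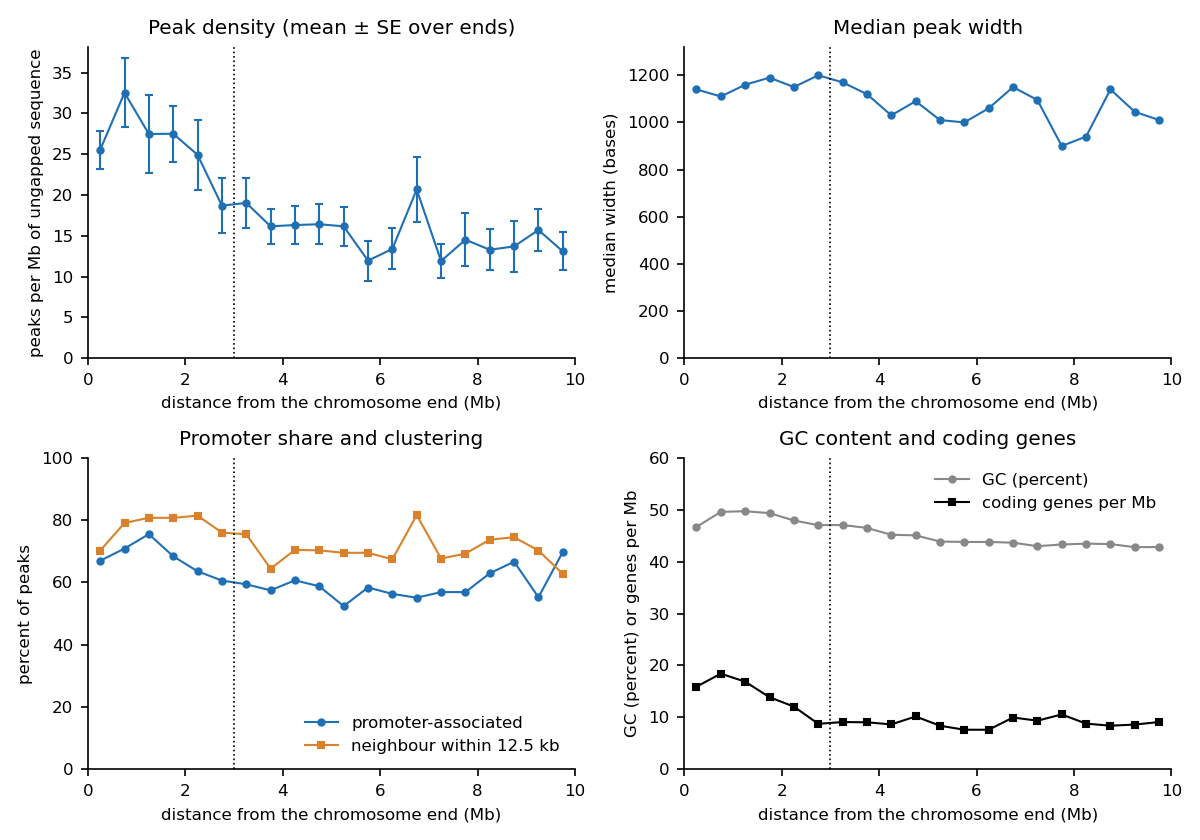
Peak density, median peak width, promoter share with clustering, and GC content with coding genes in 0.5 Mb bins from 0 to 10 Mb from the chromosome end, over 39 ends. Error bars are SE over ends and the dotted line is the 3 Mb boundary. Density peaked at 32.5 per Mb between 0.5 and 1 Mb and stood at 19.02 per Mb just past the boundary.

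Each chromosome was then compared with itself. The mean density over the 22 chromosomes was 25.8 ± 10.4 peaks per Mb (SD) at the ends and 11.3 ± 4.64 in the rest, a difference of 14.5 ± 1.93 (SE), and it was higher at the ends on 21 of 22 chromosomes (two-sided paired permutation test over chromosomes, adjusted p = 4.5e-05, from the smallest p that the permutations can give). Chromosomes are not replicate samples, so this p and those below describe how regular a difference was over the chromosomes of 1 list. Chromosome 17 had 52.9 peaks per Mb at its ends and 18.02 elsewhere, and chromosome 16 had 42.4 and 13.7. Chromosome 22, for which the long-arm end alone was used, was the exception with 16.4 at its end and 20.5 elsewhere. Against the sequence 3 to 10 Mb from the same ends the difference was 10.3 (permutation test, adjusted p = 0.00108). When ends and rest were both limited to 1 Mb windows that reached the median GC content of the end windows, a comparison chosen after seeing the data, 9 chromosomes with 33 end windows and 115 windows of the rest were used. The difference was then 5.56 peaks per Mb, higher at the ends on 7 of 9 (exact permutation test, adjusted p = 0.541), and the median GC was still 54.4% in those end windows and 50% in the others. With fewer chromosomes the test has less power, so this p does not show that ends and rest were alike. When the minimum was put on the rest alone, which sets all end windows against the GC-rich part of the rest, the difference was -2.14 (exact permutation test, adjusted p = 0.693). With windows of the rest that held as many coding gene starts as the median end window, again with all of the ends, it was 4.04 on 19 chromosomes (permutation test, adjusted p = 0.11).

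Base composition and gene content moved with the density. The 117 end windows of 1 Mb had a median GC of 48.2% and 11 coding gene starts, and the 2641 windows of the rest had 39.96% and 4. Of the windows of the rest, 142 reached the GC median of the ends and 497 reached their median of gene starts. Within steps of GC content, the end windows had the higher median density in 4 of 5 steps. Below 40% GC the medians were 6 peaks per Mb in 9 end windows and 2 in 1332 windows of the rest, between 40 and 45% they were 13.1 in 27 and 11 in 911, and between 45 and 50% they were 23.1 in 34 and 20 in 335. Between 50 and 55% the ends were lower, with 29.5 in 30 end windows and 35 in 61 windows of the rest. Above 55% the medians were 42 in 17 end windows and 28 in 2 windows of the rest. These medians are descriptions without a test.

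**Figure D2:**
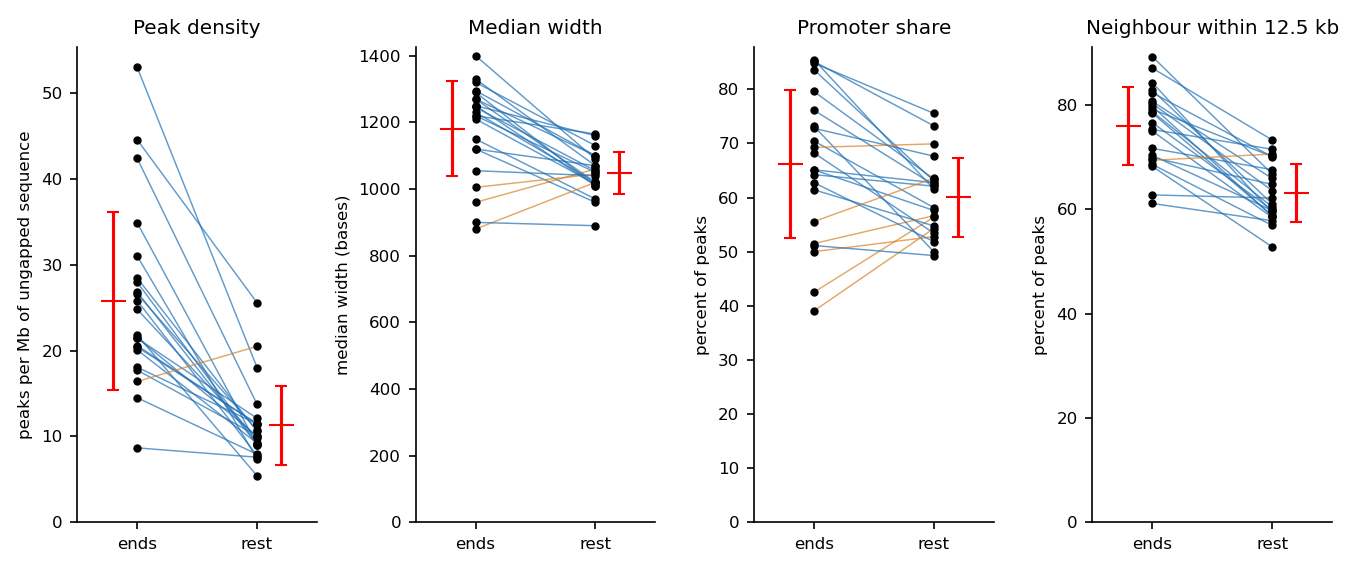
Ends and rest of each of 22 chromosomes for peak density (peaks per Mb of ungapped sequence), median width (bases), promoter share and share of peaks with a neighbour within 12.5 kb (percent). Black points are chromosomes, lines join the same chromosome and are blue where the ends were higher and orange otherwise, and red bars are mean ± SD. Density and the neighbour share were higher at the ends on 21 of 22 chromosomes.

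The 39 ends differed widely among themselves. Peak density ranged from 2.68 to 72.2 per Mb with a median of 22.8, and 32 ends lay above the pooled density of the rest and 7 below it. The long-arm end of chromosome 17 (17q) held 212 peaks, the short-arm end of chromosome 19 (19p) held 181 and 16p held 170. These ends had GC contents of 54.4, 56.1 and 56.7% and held 70, 102 and 134 coding genes. At the other extreme, 3p held 8 peaks with 3 coding genes and 37.1% GC, 11q held 20 peaks and 18p held 22. Over the 39 ends, density went with GC content (Pearson r = 0.793, Spearman rho = 0.805) and with the number of coding genes (r = 0.760, rho = 0.755), given here as a description, since the 2 ends of a chromosome share its composition and all ends share 1 list. Short arms had 27.03 peaks per Mb over 17 ends and long arms 25.4 over 22 ends.

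The ends also differed in what their peaks were. On 19q, which holds a cluster of zinc finger genes, 92.8% of 83 peaks were promoter-associated, and on 16p 87.1% of 170 were. On 10p 24.6% of 65 peaks were promoter-associated, yet 90.8% of them had a neighbour within 12.5 kb. The 17q end combined the highest count with narrow peaks, with a median width of 800 bases and none wider than 4750 bases. The 9q end had the widest median, 1500 bases, over 131 peaks.

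The longest stretch without a peak between neighbouring members lay on 18p (chr18:813351-2570630), where 1757 kb held 1 coding gene start. The next were 962 kb on 9p, 916 kb on 2p and 871 kb on 22q, with 1, 2 and 0 coding gene starts. The fifth was 862 kb on 1q (chr1:247963441-248825200) and held 30 coding gene starts, of which 28 were olfactory receptor genes.

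**Figure D3:**
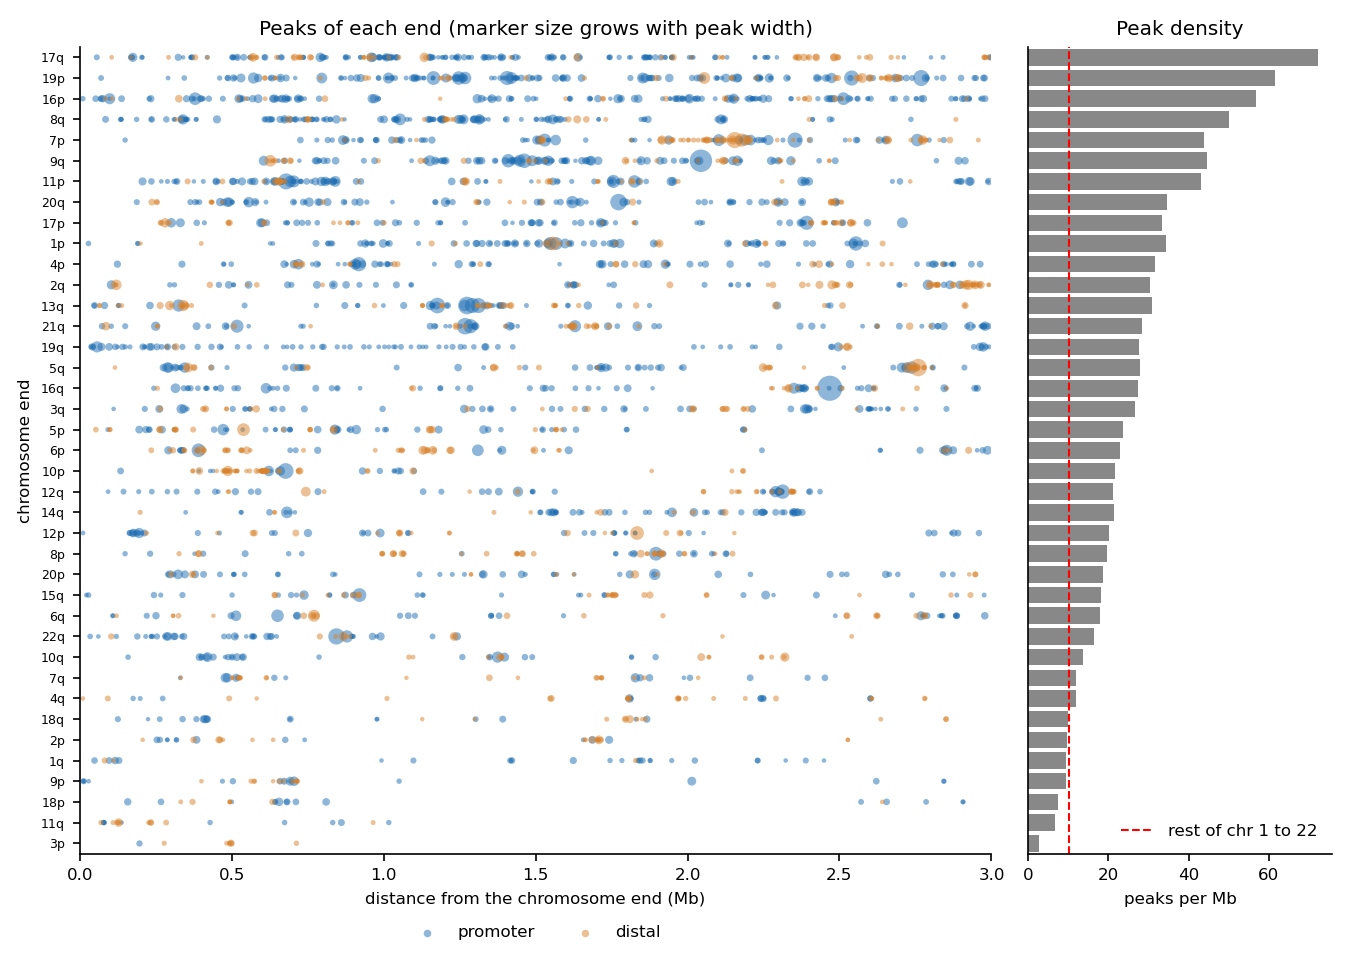
Each of the 3003 peaks by its distance from the chromosome end (Mb), with 39 ends in rows ordered by number of peaks, promoter-associated peaks in blue, distal peaks in orange and marker size growing with peak width. Bars give peaks per Mb of ungapped sequence at each end and the dashed red line is the pooled rest at 10.2. The rows run from 17q with 212 peaks to 3p with 8.

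Peaks with any base within 3 kb of an annotated transcript start were counted as promoter-associated, and the others as distal. By that rule 2049 of the 3003 members (68.2%, 95% Wilson interval 66.5 to 69.9, counting error only) were promoter-associated, beside 61.1% of all peaks on chromosomes 1 to 22 and 60.3% of the rest. Of the others, 699 members (23.3%) lay inside genes and 255 (8.49%) between genes, against 27.6 and 12.1% in the rest. Over chromosomes, the promoter share was 66.2 ± 13.7% at the ends and 60.02 ± 7.23% in the rest, a difference of 6.21 ± 2.33 percentage points (SE), higher on 16 of 22 (permutation test, adjusted p = 0.0178). The promoter share depended on which starts were counted, since with starts of protein-coding transcripts alone the difference was 0.429 (permutation test, adjusted p = 0.88). A transcript start inside the peak itself was held by 42.1% of members and 41.8% of the rest. The share difference was -4.81 against windows of the rest with as many coding gene starts (permutation test, adjusted p = 0.167).

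The promoter share has to be set beside how much of the sequence is near a start. At the ends 31.2% of ungapped bases lay within 3 kb of a transcript start, against 17.4% in the rest. The ratio of the promoter share to that percentage was 2.19 at the ends and 3.46 in the rest. Both kinds of sequence were more acetylated at the ends. Peaks covered 9.46% of the sequence within 3 kb of a start, against 5.20%, and 2.02% of the other sequence, against 0.645%. Distal peaks were counted per Mb of sequence outside promoter windows, where the mean over chromosomes was 12.2 ± 5.87 at the ends and 5.40 ± 1.90 in the rest (difference 6.83 ± 1.28, SE, higher on 19 of 22, permutation test, adjusted p = 0.00015). That difference was 3.73 against the sequence 3 to 10 Mb from the same ends (permutation test, adjusted p = 0.0348) and 0.969 with the GC minimum on both sides (9 chromosomes, exact permutation test, adjusted p = 0.945).

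Genes at the ends were dense and short. The ends held 14.3 coding genes per Mb with a median length of 16.6 kb, and the rest held 6.61 per Mb with 29.3 kb. Of the 1643 coding genes that start in the ends, 1152 (70.1%, interval 67.9 to 72.3) had a peak within 3 kb of a start, beside 64.2% of all 19111 coding genes of chromosomes 1 to 22 and 63.6% of those elsewhere. Over chromosomes the share was 70.9 ± 10.6% against 64.3 ± 5.1% (difference 6.64 ± 2.27, SE, higher on 18 of 22, permutation test, adjusted p = 0.0141). Chromosome 1 went the other way, with 45.8% at its ends and 62.5% elsewhere, and chromosome 17 had 79.8 and 56.7%. Without chromosomes 16, 17, 19 and 22 the difference was 5.46 and did not pass the test (permutation test, adjusted p = 0.059).

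The members had a median width of 1150 bases with quartiles of 640 and 1970, against 1050 with 620 and 1745 in the rest. The 90th percentile was 3218 bases among members and 2650 in the rest. The mean of the chromosomes' median widths was 1181 ± 142 bases at the ends and 1048 ± 64.2 in the rest (difference 134 ± 26.4, SE, higher on 19 of 22, permutation test, adjusted p = 0.000427). Chromosomes 10, 7 and 13 were the 3 with narrower peaks at the ends, at 880, 960 and 1005 bases. By chromosome medians, promoter-associated members were wider than those of the rest, 1372 ± 188 against 1263 ± 92.3 bases (difference 109 ± 34.4, SE, 17 of 22, permutation test, adjusted p = 0.00628). Their pooled lower quartile was narrower, at 700 against 750 bases, and their upper quartile wider, at 2180 against 1920. The difference at promoters did not pass under 5 alternatives, at 39.8 bases with ends of 1 Mb (permutation test, adjusted p = 0.605), 53.4 against the sequence 3 to 10 Mb from the same ends (permutation test, adjusted p = 0.303), 62.9 against windows with as many coding gene starts (permutation test, adjusted p = 0.167), and 134 and 60.6 with the GC minimum on both sides and on the rest alone. Distal members measured 859.5 ± 181 against 775 ± 44.5 bases, a difference of 84.3 ± 41.8 (SE) that was positive on 13 chromosomes and negative on 7 and did not pass the test (permutation test, adjusted p = 0.0556). With the GC minimum on both sides the difference in median width over all peaks was 162 bases (9 chromosomes, exact permutation test, adjusted p = 0.404).

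Of the members 109 (3.63%, interval 3.02 to 4.36) were wider than 5 kb, beside 2.13% of all peaks on chromosomes 1 to 22 and 1.96% of the rest. Over chromosomes the share was 3.56 ± 2.13% against 2.11 ± 0.998% (difference 1.46 ± 0.497, SE, 16 of 22, permutation test, adjusted p = 0.0124 over 11 tests), a test added after the widths had been seen. Against the sequence 3 to 10 Mb from the same ends that difference was 0.203 (3.56 against 3.36%, permutation test, adjusted p = 0.734), and with ends of 1 Mb it was 1.49 (permutation test, adjusted p = 0.0528). Of the 97 peaks wider than 10 kb on these chromosomes, 29 were members, which was 0.966% of members, against 0.252% of the rest and 0.32% of all. Among the 100 widest peaks 30 were at ends, and among the 500 widest 94 were, where members made up 10.01% of all peaks on these chromosomes.

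**Figure D4:**
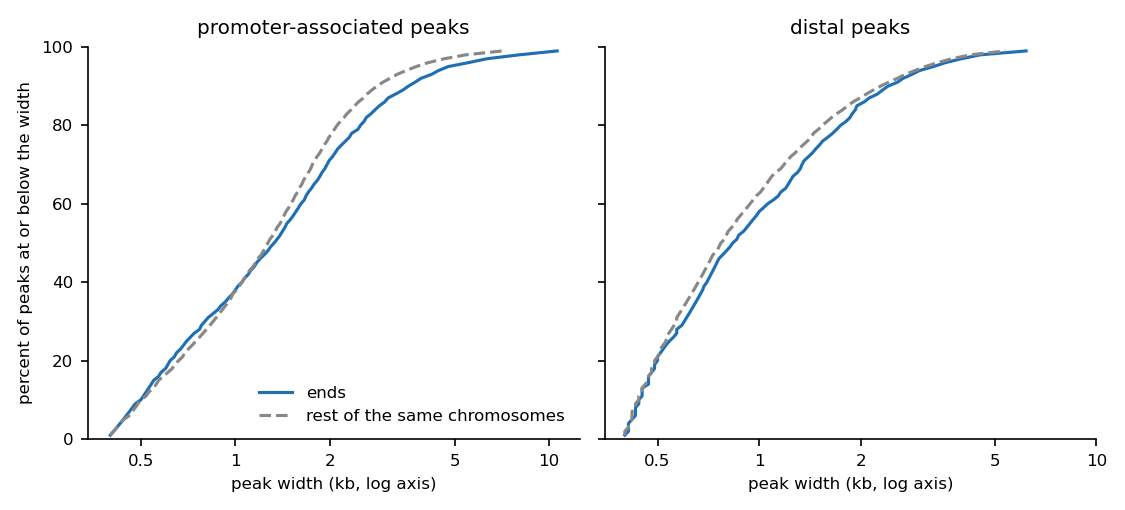
Percent of peaks at or below each width (kb, log axis) for promoter-associated and distal peaks, with members as solid blue lines and the rest of the same chromosomes as dashed grey lines. The promoter curves meet near the 40th percentile. At the 25th percentile the members were narrower, at 700 against 750 bases, and at the median they were wider, at 1330 against 1270. The distal medians were 835 and 770.

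The 2 widest peaks on chromosomes 1 to 22 were both members. The widest covered 35.7 kb (chr16:87834421-87870110) on SLC7A5, which encodes a transporter of large neutral amino acids and starts inside the peak, 2469 kb from the end of 16q. The next covered 28.4 kb (chr9:136322781-136351130) and held the start of GPSM1, a modulator of G-protein signalling. Peaks of 17.2 kb in MCF2L, a guanine nucleotide exchange factor, and of 15.1 kb in COL18A1, which encodes the collagen from which endostatin is cut, overlapped those genes without holding the coding gene's start, and so did one of 15.1 kb in SLCO4A1, an organic anion transporter. PIM3, a serine/threonine kinase, had a peak of 14.6 kb over its start, and SGTA, a co-chaperone, one of 14.2 kb. The distal peaks among the 10 widest members were one of 16.8 kb on 5q, 31.9 kb from ZNF354A, and one of 14.4 kb inside MAD1L1, a spindle checkpoint gene. The tenth covered 14.2 kb in DEAF1, a transcription factor.

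The sequence at the centre of the widest member is shown because it lies inside the gene, away from its start. In the 300 bases at chr16:87852116-87852415 (plus strand, hg38) capitals mark the 8 CpG dinucleotides.
SLC7A5 peak centre: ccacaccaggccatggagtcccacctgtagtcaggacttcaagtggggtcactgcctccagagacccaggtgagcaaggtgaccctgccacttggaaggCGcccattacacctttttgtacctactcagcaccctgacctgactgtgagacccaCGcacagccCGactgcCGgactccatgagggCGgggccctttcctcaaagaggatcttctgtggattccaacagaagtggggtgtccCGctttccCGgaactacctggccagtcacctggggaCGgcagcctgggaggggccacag

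Members clustered more than the peaks of the rest. A neighbour within 12.5 kb, the distance over which peaks were joined in the study's enhancer calls, was found for 2353 members (78.4%, interval 76.9 to 79.8), beside 64.3% of all peaks on chromosomes 1 to 22 and 62.8% of the rest. A neighbour within 1 kb was found for 43.3% of members and 35.6% of the rest. No neighbour within 100 kb was found for 57 members (1.90%) and 7.39% of the rest. Over chromosomes the share with a neighbour within 12.5 kb was 75.98 ± 7.49% at the ends and 63.2 ± 5.57% in the rest (difference 12.8 ± 1.61, SE, 21 of 22, permutation test, adjusted p = 4.5e-05). Against the sequence 3 to 10 Mb from the same ends it was 5.68, from 75.98 and 70.3%, higher on 14 of 22 (permutation test, adjusted p = 0.0348). Windows of the rest with as many coding gene starts gave a difference of 11.7, higher on 17 of 19 (permutation test, adjusted p = 9e-05). With the GC minimum on both sides it was 2.51 (9 chromosomes, exact permutation test, adjusted p = 0.945).

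A higher density by itself brings peaks closer together, so the spacing was also measured as the median gap between neighbouring peaks divided by the mean gap, which is lower where peaks come in clumps. The ratio was 0.261 ± 0.0937 at the ends and 0.209 ± 0.0542 in the rest, higher at the ends on 17 of 22 chromosomes (difference 0.0516 ± 0.0186, SE, permutation test, adjusted p = 0.0141). The sign depended on the setting. With gaps over 1 Mb left out of both, the difference was -0.018, higher at the ends on 9 of 22 (permutation test, adjusted p = 0.378). The ratio was then 0.265 at the ends and 0.283 in the rest, so the change lay mostly in the rest. A gap between members cannot be longer than an end, whereas gaps in the rest have no such limit. The main difference therefore depended on long gaps in the rest and does not show that members were less clumped. Against windows of the rest with as many coding gene starts it was -0.134 (permutation test, adjusted p = 9e-05), and with the GC minimum on the rest alone it was -0.119. Windows of 1 Mb cut long gaps short.

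Joined at 12.5 kb, the peaks of chromosomes 1 to 22 formed 16528 regions, of which 1247 (7.55%) lay wholly in an end. These held a mean of 2.40 peaks, against 1.77 in the rest, and 52.1% were single peaks, against 65.8%. Regions with at least 5 peaks numbered 148 (11.9%) at the ends, against 5.33% in the rest, and those with over 10 kb of summed peak width were 104 (8.34%), against 3.10%. Ranked by summed width, 4 of the top 10 regions, 16 of the top 50, 23 of the top 100 and 99 of the top 500 lay in an end. The ranking uses width, since the list holds no signal, and these regions are not super-enhancer calls.

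The second-ranked region on chromosomes 1 to 22 lay on 7p (chr7:2051561-2253210), over MAD1L1, MRM2, NUDT1 and SNX8. It joined 36 peaks of 400 to 14410 bases with 86.8 kb of summed width, and 14 of the 36 were promoter-associated. The region at MCF2L on 13q ranked 5, with 16 peaks and 61.5 kb, of which the widest covered 17.2 kb. The region over DRD4, DEAF1, EPS8L2 and TMEM80 on 11p ranked 7, with 24 peaks that filled 76.1% of its 76.3 kb. The region on 5q ranked 9, with 15 peaks and 54.1 kb, and overlapped no coding gene, the nearest being ZNF354B at 27.1 kb.

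Other regions among the top 10 at ends had other shapes. The SLC7A5 region, ranked 22, was 1 peak of 35690 bases with 3 smaller ones, and the GPSM1 region, ranked 29, was 1 peak of 28350 bases with 5 others. The 17q region over CCDC57, SLC16A3 and CSNK1D, ranked 24, was instead built of 26 peaks, 21 of them promoter-associated, with a median of 990 bases and none over 4750. The region over TRAF2, FBXW5, C8G and LCN12, ranked 23, had 11 peaks. COL18A1, ranked 31, had 7 peaks that filled 88.9% of 38.7 kb.

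**Figure D5:**
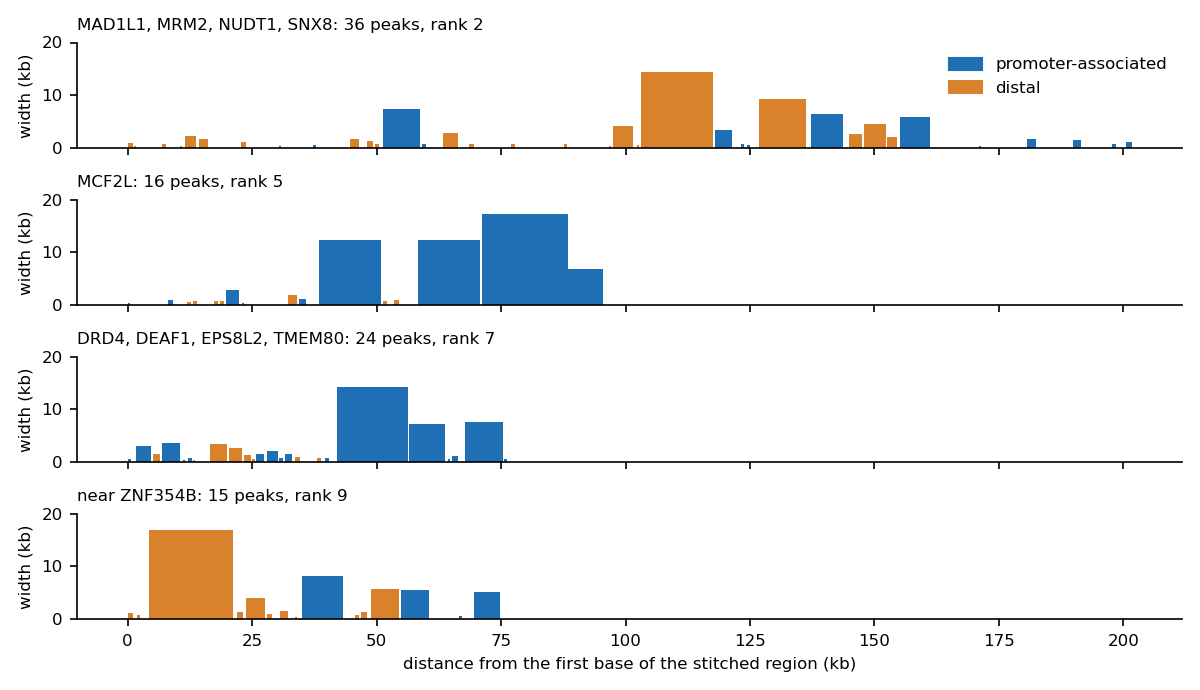
Peaks of the 4 stitched regions with the most summed peak width among those wholly in an end, drawn as bars as wide and as tall as the peak is long (kb), against the distance from the region's first base (kb). Promoter-associated peaks are blue and distal peaks orange. The regions rank 2, 5, 7 and 9 on chromosomes 1 to 22 and hold 36, 16, 24 and 15 peaks.

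Peaks reached far toward the tips. A peak lay within 50 kb of the assembly end on 10 of 39 ends, within 100 kb on 17, within 200 kb on 31 and within 500 kb on 38. The exception was 9q, whose nearest peak lay 605 kb away. The assembly begins or stops with an unresolved gap of 10 kb at the ends with the closest peaks. The closest member (chr16:10051-11110, 1060 bases) began 0.05 kb after that gap on 16p, beside DDX11L10 and DDX11L16 of a subtelomeric pseudogene family. The next lay on 4q (chr4:190203561-190203980), 17.6 kb from the nearest coding gene, DUX4, on 9p (chr9:10991-11410 and chr9:12631-14120, near WASHC1) and on 12p (chr12:11001-11550, beside DDX11L8). The telomere repeat TTAGGG in 3 tandem copies on either strand was found in 0 of the 3003 members and in 1 of the 26983 peaks of the rest. With so few matches in the list, the absence does not set members apart from the rest.

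Sequence that occurs more than once in the genome was concentrated at the tips. Each peak was cut into words of 50 bases, the length of each read of a pair, and a word was called repeated when it occurred more than once on chromosomes 1 to 22, X and Y of hg38 on either strand. At least 50% of the words were repeated in 10 of the 17 members within 50 kb of an end (58.8%, interval 36.01 to 78.4), in 2 of 31 between 50 and 100 kb and in 17 of 108 between 100 and 250 kb. Beyond that the share was between 1.99 and 3.17%. Over all members it was 3.46%, below the 4.93% of the rest. For the 5 closest members 29.9, 77.9, 85.98, 70.3 and 93.1% of words were repeated, and the copy from which their reads came cannot be told from the list. Without peaks of this kind the 10 differences that passed the test still did, and the density difference was 14.2 peaks per Mb.

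The centre of the closest member is shown as the peak sequence nearest to a telomere. In the 300 bases at chr16:10431-10730 (plus strand, hg38) capitals mark the 40 CpG dinucleotides, against 8 at the centre of the SLC7A5 peak.
16p tip: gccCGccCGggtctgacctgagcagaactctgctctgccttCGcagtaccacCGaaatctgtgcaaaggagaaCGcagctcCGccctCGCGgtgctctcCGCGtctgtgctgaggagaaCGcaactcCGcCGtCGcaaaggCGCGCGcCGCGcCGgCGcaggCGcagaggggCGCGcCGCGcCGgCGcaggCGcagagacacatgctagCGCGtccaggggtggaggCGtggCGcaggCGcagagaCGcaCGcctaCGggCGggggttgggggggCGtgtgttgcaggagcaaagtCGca

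Taken over the whole peak, the promoter-associated members were richer in GC and poorer in CpG for their GC. Their median GC was 63.3%, against 57.5% in the rest, and their median ratio of observed to expected CpG was 0.556, against 0.646. Over chromosomes the ratio was 0.566 ± 0.0956 and 0.641 ± 0.0564 (difference -0.0753 ± 0.0214, SE, lower at the ends on 15 of 22, permutation test, adjusted p = 0.00466 over 11 tests), in a test added after the data had been seen. Against the sequence 3 to 10 Mb from the same ends it was 0.0149 (permutation test, adjusted p = 0.677). Distal members had the opposite order, with 0.347 against 0.251, and a median GC of 53.7 against 47.3%. So did the windows at the starts of coding genes that are described below. Their median ratio was 0.885 at end genes with a promoter peak and 0.7972 at such genes elsewhere. For genes without a promoter peak it was 0.3998 and 0.3242. The lower ratio of promoter-associated members thus holds for whole peaks and not for the windows at starts, where no test was run.

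The ATF/CREB site TGACGTCA, a palindrome that reads the same on both strands and does not overlap the AP1 site TGAGTCA, was found in 97 members (3.23%, interval 2.66 to 3.93) and in 2.52% of the rest. Per Mb of peak there were 25.7 in promoter-associated members and 7.49 in distal ones, from 97 and 9 matches, against 23.8 and 8.79 in the rest. The AP1 site was found in 16.3% of members and 16.98% of the rest, searched on both strands. In windows from 250 bases before to 50 after the start of each coding gene, read from hg38, TGACGTCA was held by 39 of the 1152 end genes with a promoter peak (3.39%, interval 2.49 to 4.59) and by 6 of the 491 without (1.22%, interval 0.561 to 2.64). Elsewhere the shares were 2.84 and 1.23%, and 2.30% of all 19111 windows held it. The AP1 site went the other way in these windows, at 2.26% of end genes with a promoter peak and 5.91% of those without. Elsewhere its shares were 3.04 and 5.84%, and 3.998% of all windows held it. The median ratio of observed to expected CpG was 0.885 at end genes with a promoter peak and 0.3998 at those without. TGACGTCA holds a CpG and TGAGTCA does not. Whether the TGACGTCA shares differ beyond CpG content was not tested. A match shows the letters and does not show binding.

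The windows of RefSeq (GRCh38.p14) with the site that lay nearest to their chromosome ends are printed because each lay under a member. They are in the direction of the gene, with TGACGTCA in capitals. By symbol, 1193 of the 1643 end genes could be matched to such a window, and 35 genes with a promoter peak had the site in it. These genes had 33 distinct windows, and neighbours on opposite strands, such as MRM3 and GLOD4, could share a site. The 35 are therefore not independent, and the shares are those given above for windows read from hg38. ZNF10 (chr12:133130377-133130676, plus strand) is a KRAB zinc finger repressor, THOC1 (chr18:267998-268297, minus strand) a subunit of the mRNA export complex THO, RAB11FIP3 (chr16:425399-425698, plus strand) an effector of RAB11, ZNF511 (chr10:133308664-133308963, plus strand, shared with the readthrough ZNF511-PRAP1) a zinc finger gene and ESYT2 (chr7:158829460-158829759, minus strand) an extended synaptotagmin.
ZNF10: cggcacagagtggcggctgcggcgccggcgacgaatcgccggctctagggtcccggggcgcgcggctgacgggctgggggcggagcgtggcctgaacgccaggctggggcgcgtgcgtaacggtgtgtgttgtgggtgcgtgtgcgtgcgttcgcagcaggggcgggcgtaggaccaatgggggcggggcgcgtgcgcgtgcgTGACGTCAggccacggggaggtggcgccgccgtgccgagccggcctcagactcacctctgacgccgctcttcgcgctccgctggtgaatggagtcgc
THOC1: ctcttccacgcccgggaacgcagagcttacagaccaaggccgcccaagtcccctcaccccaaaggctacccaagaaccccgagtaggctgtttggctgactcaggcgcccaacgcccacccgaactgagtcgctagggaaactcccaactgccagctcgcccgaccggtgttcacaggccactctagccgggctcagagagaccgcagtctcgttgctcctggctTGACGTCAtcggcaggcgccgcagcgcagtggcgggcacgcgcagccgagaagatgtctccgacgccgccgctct
RAB11FIP3: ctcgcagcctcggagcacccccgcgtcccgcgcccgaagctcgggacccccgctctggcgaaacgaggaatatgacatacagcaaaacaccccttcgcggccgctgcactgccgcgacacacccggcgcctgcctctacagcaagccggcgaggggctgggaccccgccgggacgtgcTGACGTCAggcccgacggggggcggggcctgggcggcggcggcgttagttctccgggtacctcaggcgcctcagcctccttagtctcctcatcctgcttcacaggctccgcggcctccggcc
ZNF511: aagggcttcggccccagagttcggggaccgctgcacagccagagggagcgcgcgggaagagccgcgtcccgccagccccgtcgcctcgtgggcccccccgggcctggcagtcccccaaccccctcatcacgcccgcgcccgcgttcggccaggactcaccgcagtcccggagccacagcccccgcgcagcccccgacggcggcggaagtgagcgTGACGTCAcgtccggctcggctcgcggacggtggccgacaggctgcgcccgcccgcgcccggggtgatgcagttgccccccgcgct
ESYT2: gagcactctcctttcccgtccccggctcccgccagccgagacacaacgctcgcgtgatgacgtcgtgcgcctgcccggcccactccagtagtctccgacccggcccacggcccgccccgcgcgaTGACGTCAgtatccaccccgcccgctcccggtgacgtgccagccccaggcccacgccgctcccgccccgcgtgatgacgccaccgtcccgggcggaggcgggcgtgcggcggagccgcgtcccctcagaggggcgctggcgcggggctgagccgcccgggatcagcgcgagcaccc
The first base of the site lay 47, 25, 72, 36 and 126 bases before the start. The members over these windows measured 1350, 1820, 1610, 1730 and 3110 bases.

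Gene families at the ends differed in how many members had a promoter peak, beside the 64.2% of all coding genes and the 70.1% of those at the ends. Zinc finger (ZNF) genes had one in 88 of 96 cases at the ends (91.7%) and in 82.97% of 370 elsewhere, and the median of their widest promoter peaks was 1115 bases. A peak between neighbouring genes counted for each of them. The widest at zinc finger genes were 5740 bases at ZNF276 and 5400 bases at ZNF517. All 8 listed ribosomal protein genes at the ends had one, as did 67 of the 68 elsewhere (98.5%). The median at the ends was 1995 bases, from 1580 at RPS15 to 5400 at RPL8. RPLP2 on 11p was not in the list and had a member of 4620 bases over its start. Olfactory receptor genes had one in 3 of 57 cases (5.26%), with a median of 650 bases. Genes of the macrosatellite and duplicated blocks nearest the tips had one in 2 of 20 cases, namely FRG1 with 1170 bases and WASHC1 with 520. Genes of that list share sequence with copies elsewhere.

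Of the pigment cell genes, which CCS shares with melanocytes, 2 lay at an end and both had promoter peaks, as did 9 of the 15 elsewhere. IRF4, a transcription factor of the melanocyte and lymphocyte lineages on 6p, had 5 peaks on or beside the gene, of 1170, 10120, 4560, 490 and 950 bases. The widest (chr6:390661-400780) covered its start. MC1R, the melanocortin receptor on 16q, had 1 peak on the gene, of 1020 bases. Peaks of 790 and 980 bases lay past the end of the gene. The widest peak at IRF4 was thus broader than that at MC1R.

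Of 20 signalling and cancer genes at ends, 15 (75%) had a promoter peak, near the 70.1% of all coding genes at the ends. After SLC7A5 the widest were 11480 bases at TRAF2, an adaptor of TNF receptor signalling, and 10340 bases at STK11, which encodes the kinase LKB1. NOTCH1 had one of 4090 bases, SKI, a repressor of TGF-beta signalling, one of 4030 and HRAS one of 3120, while FGFR3 had one of 2540. TERT, the catalytic subunit of telomerase, had none, and its nearest peak lay 33.8 kb from its start. CDH15, CBFA2T3, TNFRSF4 and TNFRSF18 had none either.

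Of 22 transcription factor genes at ends, 17 (77.3%) had one, also near the 70.1% of all coding genes there, and 2 of the 3 listed genes elsewhere had one. DEAF1 had 7 with the widest at 14160 bases, MAFK, a small MAF protein, 9040 bases, and the forkhead genes of the 6p cluster 7170 bases at FOXQ1, 4040 at FOXF2 and 3070 at FOXC1. NACC2 had one of 4300 bases and HES4, a Notch target, one of 3610. GATA5, HES5, LHX3, MNX1 and MYT1 had none.

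Of the lists, 2 were well-studied gene clusters at an end, and in each some genes had a promoter peak and others had none. At the alpha-globin cluster on 16p, 4 of 9 genes had a promoter peak and none of them was a globin gene. RHBDF1 and MPG shared a peak of 2310 bases, LUC7L had one of 1070, and NPRL3, which houses the distant enhancers of the globin genes, had peaks of 500, 400, 6350, 430 and 1990 bases on or beside it. The start of HBZ lay 3.08 kb from the nearest peak, just outside the 3 kb window. The distance was 14.2 kb for HBM, 33.2 for HBA2, 37.03 for HBA1 and 40.8 for HBQ1. At the imprinted cluster on 11p, 7 of 15 genes had a promoter peak. CD81 at 4740 bases, PHLDA2 at 3820 and TSSC4 at 3610 had the widest, followed by NAP1L4 at 2490, SLC22A18 at 1970, KCNQ1OT1, the antisense RNA of KCNQ1, at 1770 and CDKN1C, an inhibitor of the cell cycle, at 1240. H19, IGF2, INS, TH, ASCL2, TSPAN32, TRPM5 and KCNQ1 had none, and the nearest peak to the start of IGF2 lay 153 kb away.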

How the data were processed

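Chromatin of SU-CCS-1 cells was precipitated with an anti-H3K27ac antibody in 3 samples and sequenced beside 3 Input samples. Groups were taken from the sample titles. Per the labels and the study's methods, reads were aligned by the authors to hg38 with BWA (0.7.10-r789), and they called broad peaks with MACS2 (2.2.6) against Input. They deposited 1 merged list of peak starts and ends, with no score, count or value per sample, so depth per sample is unknown and no replicate can be left out. Whether replicates were joined before or after calling is not given in the sources used here. Broad calling joins neighbouring stretches, so width depends on signal height too, and a region without a peak may have lain below the cutoff. Copy number was not analysed here.

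Peaks were placed on hg38, with starts from GENCODE version 44, coordinates counted from 1 and unresolved bases left out of densities. Ends and rest were compared per chromosome by two-sided paired permutation tests (100000 resamples, exact with fewer than 10 chromosomes) with Benjamini-Hochberg adjustment over 9 tests and a threshold of 0.05. A further 2 tests were added after the data were seen and adjusted over all 11. The scripts (Python 3.11.15, numpy 2.4.6, pandas 2.3.3, scipy 1.17.1, matplotlib 3.10.9) were tested on simulated data. Intervals are 95% Wilson intervals for counting error. Alternatives varied the extent of the ends, the comparison sequence, the promoter window, the stitching distance, the peaks and chromosomes used and the measure of width. The members, 9 gene lists and tests were chosen with earlier results of these data known. Genes named are those at the 10 widest members and 10 top stitched regions, at the 5 members closest to an end, in the lists, and with TGACGTCA in a promoter window, and ends named are the 3 with most and the 3 with fewest peaks, apart from others chosen after their values were seen. Gene models known by an identifier alone are not named, and 1 stitched region is not reported here.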

Additional observations from a re-analysis of the deposited data

How the results depend on the processing

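Of 110 alternatives over 11 differences between ends and rest, 61 kept direction and side of the 0.05 threshold, 37 kept direction but no longer passed, 3 passed where the first test had not, and 9 changed sign. The causes were not tested. Values are ends minus rest.

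Against windows of the rest of equal or higher GC, with no limit on the ends (9 chromosomes, exact test) the differences were -2.14 peaks per Mb, 61.7 bases in median width, 3.14 percentage points in promoter share, 4.88 in stitched share, -0.119 in gap ratio, 60.6 bases for promoter peaks, -14.4 for distal peaks, -2.74 distal peaks per Mb, 1.95 points in coding promoters with a peak, 0.796 points in peaks over 5 kb and -0.00718 in CpG ratio. None passed. With the same GC minimum on both sides, added after seeing the data (9 chromosomes, exact test), they were in the same order 5.56, 162, 5.2, 2.51, 0.00689, 134, 16.1, 0.969, 6.23, 1.36 and 0.0116, the last with its sign changed, and none passed. Tests on 9 chromosomes have less power than those on 22, so not passing does not show that a difference was absent. Against windows with as many coding starts (19 chromosomes) they were 4.04 peaks per Mb, 47.9 bases, -4.81 points in promoter share, -0.134 in gap ratio (permutation test, adjusted p = 9e-05), 62.9 bases for promoter peaks and 2.48 distal peaks per Mb. Gaps in 1 Mb windows are cut short by construction. In the same comparison stitched share (11.7), coding promoters (8.93), wide share (1.21) and CpG ratio (-0.0643) still passed. Distal width (104) did not pass there, as in the first test. With ends of 1 Mb, median width (82.7), promoter peak width (39.8), coding promoters (8.03), wide share (1.49) and CpG ratio (-0.0479) no longer passed. With ends of 5 Mb, promoter share (2.86) and gap ratio (0.0223) no longer passed and distal width (101) did. Against the sequence 3 to 10 Mb from the same ends, gap ratio (0.056), promoter peak width (53.4), coding promoters (7.03) and wide share (0.203) no longer passed and CpG ratio changed sign (0.0149). Without chromosomes 16, 17, 19 and 22, promoter share (5.55), gap ratio (0.0429) and coding promoters (5.46) no longer passed. Promoter share also failed with the widest 50% of peaks (2.47), a 1 kb window (3.86) and protein-coding transcripts (0.429), with which distal width passed (96.8). Alternatives added after seeing the data gave a gap ratio of -0.018 without gaps over 1 Mb and a distal width of 103 without repeated peaks.

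No paired analysis was possible because values per sample are not in the merged list, and for the same reason leaving out a replicate was not run. Depth is unknown, and a stricter peak threshold was tried through width alone.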
